A study of Mus musculus with 9 samples.

Results

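Chaperone genes of mouse RAW-Blue macrophages were compared between cells stimulated with lipopolysaccharide (LPS) and non-stimulated cells (None). The genes were chosen by name. They are the protein-coding genes whose symbol starts with Dnaja, Dnajb or Dnajc and a digit, with Hsp, with Cct and a digit from 2 to 8, or with Bag and a digit. Hspa5, Hsp90b1 and Dnajb9 of the endoplasmic reticulum were left out by that rule. It found 87 genes among the 50600 genes of the tables, of which 21629 are protein-coding. By role these are 2 Hsp90 genes, 13 Hsp70 and Hsp110 genes, 2 genes of the mitochondrial chaperonin and 8 of the cytosolic chaperonin CCT. The others are 8 small heat shock protein genes, 6 BAG genes, 44 J protein genes and 4 genes with other symbols. The symbols do not sort by compartment, and genes coding for proteins of the endoplasmic reticulum and of mitochondria are among them. Hspg2, which codes for the matrix proteoglycan perlecan, is a member by its symbol and is no chaperone.

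RAW-Blue is a reporter line derived from a mouse macrophage line, and it carries a secreted alkaline phosphatase gene that responds to NF-kappaB and AP-1. All cells were grown with Normocin and Zeocin, and neither agent separates the groups. The LPS group had 3 libraries from cells given 1 µg/ml LPS for 24 hours, and the None group had 3 libraries from cells given neither LPS nor vesicles. Another labelled group, pre-treated with plant vesicles before LPS, was not analysed here. The labels do not say whether the 3 libraries of a group come from separate cultures. The p-values therefore cover the spread among these libraries alone, which may be technical. The libraries held 14650843 to 15659413 expected counts for LPS and 17028457 to 17665200 for None. The genes that check the label, Nos2, Il1b and Tnf, were all higher in LPS, with log2 fold changes of 12.07, 12.32 and 3.26. All 7 macrophage markers had counts in both groups, and the T cell markers and Ly6g were at 0. The neutrophil gene S100a8, which macrophages can also express, had 66.2 to 84.2 TPM in LPS libraries, against 0.57 to 1.2 TPM in None libraries, and the B cell gene Cd79a had 0.85 to 1.44 TPM in LPS, against 0.16 to 0.28 TPM in None. Their part in the results was not tested. In RNA from whole cultures, fewer cells of a type and less RNA per cell cannot be told apart.

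Chaperones bind unfolded or partly folded proteins and release them in cycles driven by ATP. Hsp70 takes clients from J proteins, which stimulate its ATPase, and lets them go when a nucleotide exchange factor of the Hsp110 or BAG family replaces ADP. Hsp90 acts later on nearly folded clients such as kinases and receptors, small heat shock proteins hold clients without ATP, and the chaperonins enclose them in a ring. Many of these genes are targets of heat shock factor 1, which binds inverted repeats of the unit GAA called heat shock elements, while chaperones of the endoplasmic reticulum answer to the unfolded protein response through another element.

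These elements are shown first so that the changes of single members can be read beside them. RefSeq promoter windows of GRCm38.p6, running from 250 bases before to 50 after each RefSeq start, were matched by symbol for 71 of the 87 members. A heat shock element was searched as GAANNTTC, which reads the same on both strands. The longer form has 1 more unit, GAA or TTC, set off by NN on either side of that core, so every longer match also holds the short one. The short form was in a window of 17 members (23.94%), against 9.04% of all 27025 genes in the table. The longer form was in 4 members, Hspd1, Hspe1, Dnajb6 and Hsph1, against 0.66% of all genes. The matches of Hspd1 and Hspe1 lie on the same bases between these neighbouring genes. That site is therefore counted for both members, in the short and in the longer form. The endoplasmic reticulum stress element, CCAAT and CCACG with 9 bases between, searched on both strands, was in 1 member, Dnajc3. It was in 0.14% of all genes. A match is a description of letters, and no match says only that the letters are not in the window.

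The 150 bases before a RefSeq start are given for 7 of the members that hold an element within them. They run 5′ to 3′ on the strand of the gene, with the matched element in capitals. In Cct2 and Dnajb6 that RefSeq start lies inside the gene as counted, and so do the printed bases. The counted genes span chr10:117051001-117063814 for Cct2 and chr5:29735688-29786478 for Dnajb6. Hspa1b and Hspa1a, the stress-inducible Hsp70 genes, are shown together because they are near copies that differ at 1 of these 150 positions. The windows of Hspa1b at chr17:34959239-34959388 (minus strand) and of Hspa1a at chr17:34972157-34972306 (minus strand) read:
Hspa1b: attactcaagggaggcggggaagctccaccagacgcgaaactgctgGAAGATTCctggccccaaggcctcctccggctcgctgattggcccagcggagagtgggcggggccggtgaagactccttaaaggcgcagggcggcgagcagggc
Hspa1a: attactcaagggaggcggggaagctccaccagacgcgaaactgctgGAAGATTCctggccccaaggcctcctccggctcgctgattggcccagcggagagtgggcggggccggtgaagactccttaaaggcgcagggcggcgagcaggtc

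Hspe1 and Dnajb6 hold the longer form, and in Hspe1 the matches run together into 4 alternating units. Hspe1 lies at chr1:55087998-55088147 (plus strand) and Dnajb6 at chr5:29735748-29735897 (plus strand):
Hspe1: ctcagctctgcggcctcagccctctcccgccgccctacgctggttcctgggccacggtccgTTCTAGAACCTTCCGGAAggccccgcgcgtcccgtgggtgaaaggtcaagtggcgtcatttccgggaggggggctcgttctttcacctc
Dnajb6: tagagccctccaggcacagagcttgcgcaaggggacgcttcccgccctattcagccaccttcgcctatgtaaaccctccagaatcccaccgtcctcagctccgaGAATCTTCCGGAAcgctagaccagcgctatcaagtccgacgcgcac

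Dnaja1 and Cct2 hold the short form, and Dnajc3 the endoplasmic reticulum stress element. Dnaja1 lies at chr4:40722318-40722467 (plus strand), Cct2 at chr10:117063376-117063525 (minus strand) and Dnajc3 at chr14:118937782-118937931 (plus strand):
Dnaja1: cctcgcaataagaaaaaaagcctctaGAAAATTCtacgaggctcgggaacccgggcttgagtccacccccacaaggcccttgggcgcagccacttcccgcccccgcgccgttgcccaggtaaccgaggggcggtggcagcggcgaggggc
Cct2: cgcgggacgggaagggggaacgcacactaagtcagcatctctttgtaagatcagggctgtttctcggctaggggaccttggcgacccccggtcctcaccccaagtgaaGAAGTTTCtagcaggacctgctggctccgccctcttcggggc
Dnajc3: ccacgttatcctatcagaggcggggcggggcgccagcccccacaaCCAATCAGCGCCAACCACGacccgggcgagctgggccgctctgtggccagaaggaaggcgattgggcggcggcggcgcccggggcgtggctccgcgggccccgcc

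The chaperone genes moved in both directions after LPS. Of the 67 members with enough counts to be tested, 25 were higher, 18 were lower and 24 were not called (edgeR quasi-likelihood test, adjusted p under 0.05 over all genes). That is 37.31% higher and 26.87% lower, against 34.0% higher and 35.1% lower among all 11916 genes tested. Both directions together gave 64.18% of tested members, against 69.1% of all genes, so the share of members called is near the background. The groups did not overlap in 50 tested members, against 73.6% of all genes tested. A change of at least 2-fold was called higher in 4 members and lower in 5, against 11.1% higher and 11.8% lower of all genes. The median log2 fold change was 0.14 over the tested members and -0.03 over all genes tested.

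The direction of small changes depended on how libraries were scaled. TMM scaling, used for the CPM values and log2 fold changes given here, assumes that most genes do not change. Scaling by library totals moved the median of all genes by -0.26 on the log2 scale, and TPM moved it by -0.20. With library totals 18 members were higher and 26 lower, and with TPM in limma 18 were higher and 22 lower. Of all 11916 genes tested, library totals called 2679 higher and 6076 lower. The higher members were 58.14% of those called under TMM, 40.91% under library totals and 45.0% under TPM. Of all genes called, 49.22% were higher under TMM, 30.6% under library totals and 35.28% under TPM, so the move was shared by all genes. Genes named below kept their call under library totals unless said otherwise. TPM is used to compare levels between genes and within a library, and TPM values of LPS and None set side by side carry the shift above.

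**Figure D1:**
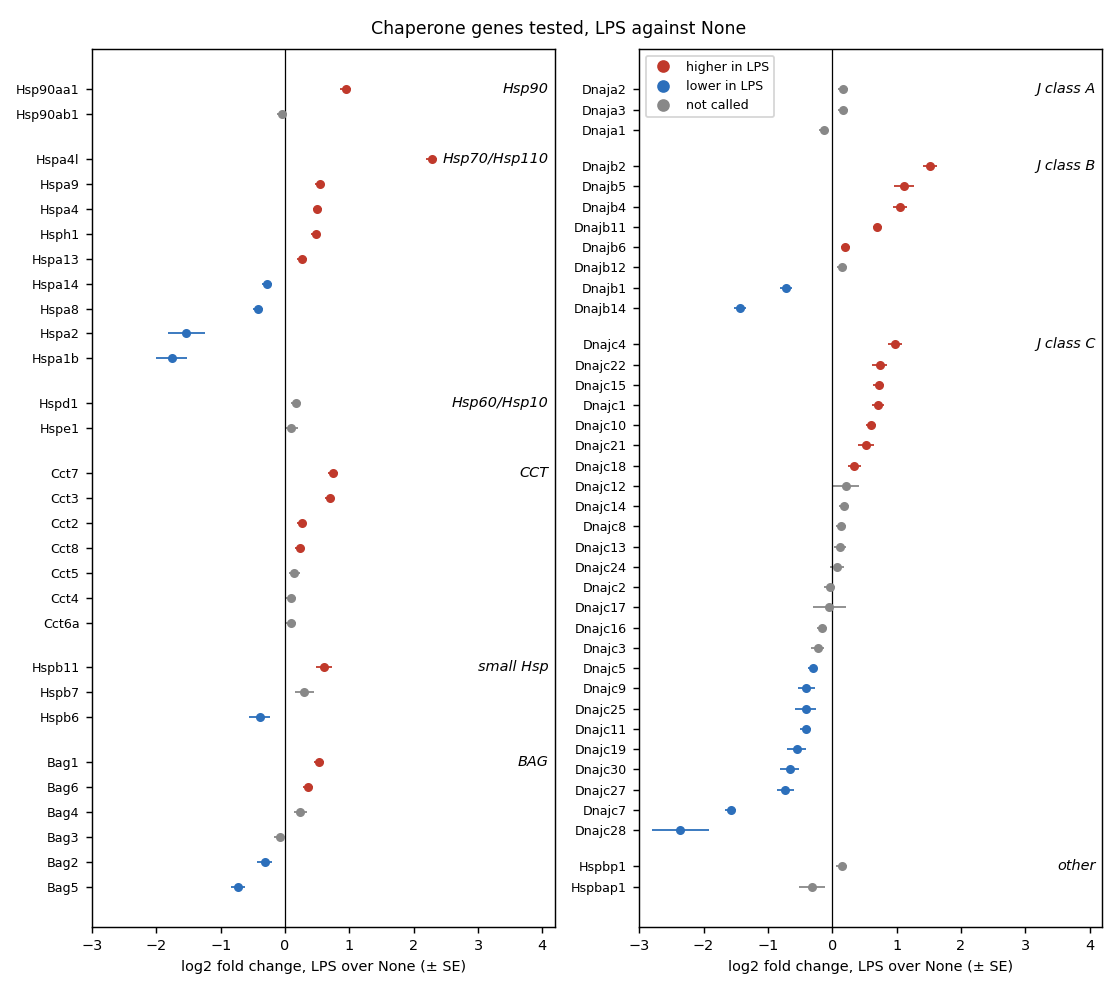
Log2 fold change of LPS over None for the 67 tested chaperone genes, grouped by role; points are edgeR estimates, bars are ± 1 SE, and colour gives the call (red higher, blue lower, grey not called). Hsp70/Hsp110 runs from -1.76 for Hspa1b to 2.28 for Hspa4l, while no CCT gene lies below 0 under TMM (with library totals 5 of the 7 do, and 1 of them is called lower).

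The cytosolic Hsp90 pair separated. Hsp90aa1, the stress-inducible alpha isoform on chromosome 12, had 1207, 1202 and 1041 CPM in LPS libraries, against 557, 608 and 634 CPM in None libraries. Every LPS library was above every None library, and the log2 fold change was 0.94 ± 0.09 (SE; adjusted p = 1.026e-06). Hsp90ab1, the constitutive beta isoform on chromosome 17, had 2238, 2296 and 2528 CPM in LPS libraries, against 2300, 2490 and 2495 CPM in None libraries. Its groups overlapped and it was not called under TMM (log2 fold change -0.04 ± 0.08, adjusted p = 0.6377), while library totals called it lower (-0.30, adjusted p = 0.003369). Within each library, which no scaling between libraries affects, the TPM of Hsp90aa1 was 0.441 ± 0.0553 of that of Hsp90ab1 in LPS and 0.215 ± 0.00476 in None (SD, n = 3 each). Hsp90ab1 remained the higher of the pair in all 6 libraries.

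All 9 tested Hsp70 and Hsp110 genes were called, 5 higher and 4 lower (4 and 4 with library totals), and in none did the groups overlap. Among all genes 69.1% were called and 73.6% did not overlap. The most abundant fell. Hspa8, the constitutive cytosolic Hsc70 on chromosome 9, had 1499, 1400 and 1469 CPM in LPS libraries, against 1875, 1950 and 2023 CPM in None libraries. Its log2 fold change was -0.42 ± 0.08 (SE; adjusted p = 0.0003049). By mean TPM it stood first of the 87 members in both groups, at 1244 ± 112 TPM in LPS and 1878 ± 42.9 TPM in None (SD, n = 3 each). In LPS replicate 3 Hsp90ab1 was the higher, at 1189.8 TPM, against 1178 TPM for Hspa8.

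Hspa1b, the stress-inducible Hsp70 whose promoter is shown above, was at low levels and lower still after LPS. It had 1.85, 2.54 and 3.9 CPM in LPS libraries, against 7.49, 11.2 and 9.41 CPM in None libraries. The log2 fold change was -1.76 ± 0.24 (SE; adjusted p = 2.789e-05), resting on 115 expected counts in all LPS libraries and 537 in all None libraries. Hspa1a, its neighbour on chromosome 17, was listed with 1.82 expected counts over the LPS libraries and 1.41 over the None libraries and was not tested. Of the 100-base stretches of the Hspa1b transcript, 49.93% also occur in Hspa1a, so the split of reads between the pair is uncertain. Together they had 28, 35 and 54 counts in LPS libraries, against 138, 218 and 182 in None libraries.

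The 3 cytosolic Hsp110 genes, which code for nucleotide exchange factors of Hsp70, all rose. Hspa4l had 193, 162 and 178 CPM in LPS libraries, against 33.9, 38.9 and 36.8 CPM in None libraries. This was the largest increase among the tested members, with a log2 fold change of 2.28 ± 0.09 (SE; 4.86-fold, adjusted p = 3.22e-10). Hspa4 had 325, 313 and 307 CPM in LPS libraries, against 213, 223 and 232 CPM in None libraries (log2 fold change 0.50 ± 0.07, adjusted p = 4.164e-05). Hsph1, whose promoter holds the longer heat shock element, had 102, 93.5 and 92.9 CPM in LPS libraries, against 67.2, 67.2 and 72.6 CPM in None libraries (0.48 ± 0.07, adjusted p = 6.984e-05).

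The make-up of the Hsp110 family shifted with these changes. In TPM within a library, Hspa4l was 0.572 ± 0.0307 of Hspa4 in LPS and 0.124 ± 0.00839 in None (SD, n = 3 each). Set against Hsph1, Hspa4l was at 1.39 ± 0.125 of its TPM in LPS and 0.307 ± 0.0185 in None, so the order of the pair was reversed between the groups.

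Of the other Hsp70 genes 2 were higher and 2 lower. Hspa9, the mitochondrial Hsp70 mortalin, rose, with 604, 589 and 600.3 CPM in LPS libraries, against 389, 415 and 428 CPM in None libraries (log2 fold change 0.54 ± 0.07, adjusted p = 2.613e-05). Hspa13, a microsomal Hsp70 relative, was called higher at 0.27 ± 0.08 (adjusted p = 0.01157), a call lost with library totals (0.01, adjusted p = 0.945) and without None replicate 3 (adjusted p = 0.0517). Hspa14, which acts at the ribosome, had 55.2, 59.6 and 51.7 CPM in LPS libraries, against 62.7, 69.7 and 70.6 CPM in None libraries (-0.29 ± 0.08, adjusted p = 0.006662). It shares 8231 bases with Gm45902 on the same strand, which was lower as well (-0.96, adjusted p = 0.00663), so the split of reads between them is uncertain. Hspa2, known for its role in the testis, had 0.71, 1.31 and 0.649 CPM in LPS libraries, against 2.33, 3 and 2.43 CPM in None libraries (-1.54 ± 0.29, adjusted p = 0.0004516).

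**Figure D2:**
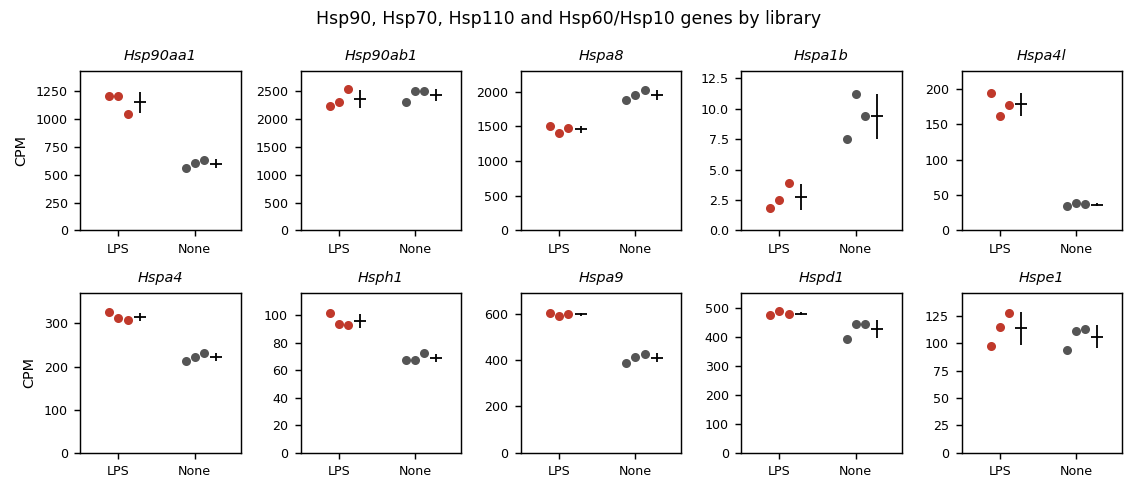
CPM (TMM-scaled, axes from 0) of 10 Hsp90, Hsp70, Hsp110 and mitochondrial chaperonin genes in each library, LPS left of None; points are libraries and the cross gives the mean ± SD (n = 3 each). Hspa4l lies at 162 to 193 CPM in LPS, against 33.9 to 38.9 CPM in None, and the groups overlap in Hsp90ab1 and Hspe1 of the genes shown.

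The mitochondrial chaperonin was not called in either subunit. Hspd1, the Hsp60 ring, had 477, 489 and 480 CPM in LPS libraries, against 393, 447 and 447 CPM in None libraries. The groups did not overlap, and the log2 fold change was 0.17 ± 0.08 (SE; adjusted p = 0.06972), past the threshold with RLE scaling (0.19, adjusted p = 0.0436) and DESeq2 (0.19, adjusted p = 0.02438). Reads of Hspd1 can be shared with the pseudogene Hspd1-ps3, which was not called (0.16, adjusted p = 0.402). Hspe1, its Hsp10 lid, had 97.8, 115 and 128 CPM in LPS libraries, against 93.8, 111 and 113 CPM in None libraries (0.10 ± 0.10, adjusted p = 0.4066). The genes lie head to head on chromosome 1 with starts 108 bases apart in the coordinates of the deposited tables, so the element printed for Hspe1 stands between them. In TPM the ratio of Hspd1 to Hspe1 was 1.05 ± 0.137 in LPS and 0.974 ± 0.0296 in None (SD, n = 3 each), values that overlap.

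The CCT chaperonin, a ring of 8 different subunits that folds actin and tubulin, did not move as a block. Of the 7 tested CCT members 4 were higher, none was lower and 3 were not called, while with library totals 2 were higher and 1 lower. The median log2 fold change was 0.23. Of all genes tested 34.0% were higher and 35.1% lower. Cct7 and Cct3 rose most. Cct7 had 471, 428 and 464 CPM in LPS libraries, against 266, 280 and 266 CPM in None libraries (log2 fold change 0.75 ± 0.07, adjusted p = 1.784e-06). Cct3 had 561, 555 and 541 CPM in LPS libraries, against 325, 346 and 354 CPM in None libraries (0.69 ± 0.07, adjusted p = 2.882e-06).

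For Cct2 and Cct8 the call depended on scaling. Cct2 had 639, 633 and 686 CPM in LPS libraries, against 516, 558 and 564 CPM in None libraries (0.26 ± 0.08, adjusted p = 0.008755). Cct8 had 397, 409 and 404 CPM in LPS libraries, against 326, 351 and 356 CPM in None libraries (0.23 ± 0.07, adjusted p = 0.01252), and overlaps Usp16 on the opposite strand by 192 bases. Both lost the call with library totals (Cct2 -0.003, adjusted p = 0.9696; Cct8 -0.03, adjusted p = 0.7192), and Cct8 also without None replicate 1 (0.19, adjusted p = 0.05107).

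Cct4, Cct5 and Cct6a were not called. Cct4 had 378, 345 and 374 CPM in LPS libraries, against 331, 361 and 337 CPM in None libraries (0.09 ± 0.07, adjusted p = 0.2821), and library totals called it lower (-0.17, adjusted p = 0.04779). Cct5 had 472, 479 and 511 CPM in LPS libraries, against 397, 455 and 470 CPM in None libraries (0.14 ± 0.08, adjusted p = 0.1373). Cct6a had 205, 210 and 191 CPM in LPS libraries, against 181, 192 and 195 CPM in None libraries (0.09 ± 0.07, adjusted p = 0.2746). It overlaps Psph on the opposite strand by 452 bases, and Psph was higher in LPS (log2 fold change 1.77). Without known strand, reads of any exon bases that the pair shares cannot be told apart.

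Tcp1, the remaining ring subunit, falls outside the naming rule. It had 622, 538 and 532 CPM in LPS libraries, against 428, 449 and 443 CPM in None libraries (0.36, adjusted p = 0.001646), a call lost with library totals (0.10, adjusted p = 0.26). With Tcp1 included, the 8 ubiquitous subunits were set against their own sum within each library, which removes the scaling between libraries. Cct3 made up 19.1 ± 0.30% of the summed TPM in LPS and 14.1 ± 0.09% in None (SD, n = 3 each). Cct7 made up 11.4 ± 0.31% in LPS and 8.49 ± 0.35% in None, and Cct4 made up 7.83 ± 0.27% in LPS and 9.43 ± 0.35% in None. Cct5 made up 13.6 ± 0.39% in LPS and 15.8 ± 0.72% in None. The shares in a library have a fixed sum, so larger shares of Cct3 and Cct7 lower those of the others. Under TMM neither Cct4 nor Cct5 was called. The subunit with the highest TPM was Cct3 in all 3 LPS libraries and Cct2 in all 3 None libraries. Cct6b, the testis-enriched alternative subunit, had 8 counts over the LPS libraries and 14 over the None libraries and was not tested.

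**Figure D3:**
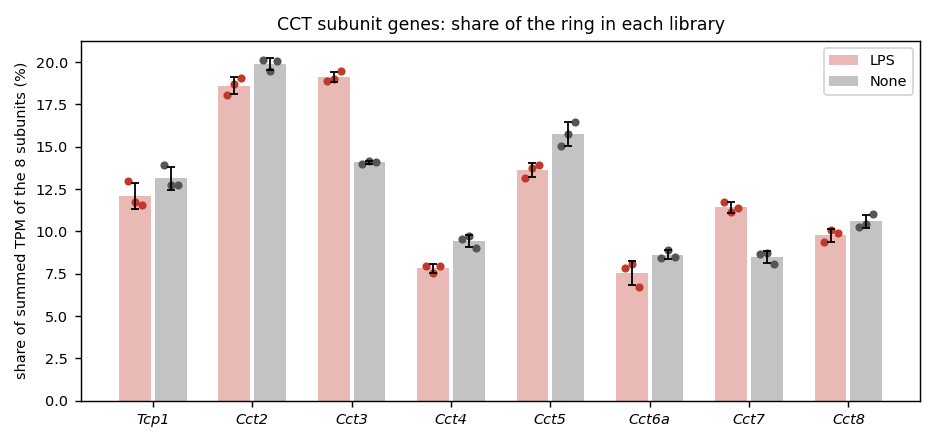
Share of each CCT subunit gene in the summed TPM of the 8 ring subunits (percent, axis from 0), LPS bars left of None bars; bars are means, error bars SD over 3 libraries and points single libraries. Cct3 takes 19.1% in LPS, against 14.1% in None, and Cct7 takes 11.4% in LPS, against 8.49% in None. The other 6 subunits take a smaller mean share in LPS, where the shares in a library have a fixed sum.

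Small heat shock proteins were mostly near or at 0. Of 8 members 4 had 0 counts in all 6 libraries, among them Hspb1, the classical heat-inducible small heat shock protein, and 3 were tested. Hspb11, also known as Ift25, a subunit of the ciliary transport complex, had 17.4, 15 and 19.1 CPM in LPS libraries, against 10.4, 12.4 and 11.1 CPM in None libraries (log2 fold change 0.60 ± 0.12, adjusted p = 0.0006573). Hspb6, known as Hsp20, had a call at the threshold (-0.39 ± 0.16, adjusted p = 0.04894) that was lost without LPS replicate 1 or 2 and without each None replicate (adjusted p from 0.06742 to 0.1802). Hspb7, best known from heart muscle, was not called (0.30 ± 0.15, adjusted p = 0.08255), and passed the threshold without LPS replicate 1 (adjusted p = 0.0135) or None replicate 2 (0.02064).

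Several BAG proteins release nucleotide from Hsp70 and link it to degradation. The BAG genes gave 2 higher, 2 lower and 2 not called (1 higher and 3 lower with library totals). Of all genes tested 34.0% were higher and 35.1% lower. Bag1, which joins Hsp70 to the proteasome, rose, with 105, 111 and 120.3 CPM in LPS libraries, against 76, 73.4 and 82.6 CPM in None libraries (log2 fold change 0.53 ± 0.08, adjusted p = 5.472e-05). Bag5, a protein with several BAG domains, fell, with 26.3, 25.3 and 20.3 CPM in LPS libraries, against 35.9, 41.4 and 42.3 CPM in None libraries (-0.73 ± 0.11, adjusted p = 7.019e-05). The groups did not overlap in either gene.

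Bag6, which guides membrane proteins released from the ribosome, had 218, 211 and 243 CPM in LPS libraries, against 174, 180 and 172 CPM in None libraries (0.35 ± 0.08, adjusted p = 0.001075), a call lost with library totals (0.09, adjusted p = 0.2531). Bag3, a heat shock factor target that steers clients to autophagy, had 48.1, 38.3 and 45.7 CPM in LPS libraries, against 48.7, 47.1 and 44.2 CPM in None libraries. It was not called under TMM (-0.08 ± 0.09, adjusted p = 0.4422) and was called lower with library totals (-0.34, adjusted p = 0.003559). Bag2, an inhibitor of the Hsp70-bound ubiquitin ligase Chip, was called lower (-0.31 ± 0.12, adjusted p = 0.02916), and the call was lost without LPS replicate 1 (adjusted p = 0.09387) or 3 (0.09428) and without None replicate 2 or 3 (0.1027 in both). Bag4 was not called (0.24 ± 0.10, adjusted p = 0.0544), and passed the threshold without LPS replicate 3 (adjusted p = 0.0127) or None replicate 2 (0.04745).

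Of the 3 tested class A J proteins, those most like bacterial DnaJ, none was called. Dnaja1, the main cytosolic one, whose promoter is shown above, had 137, 141 and 125 CPM in LPS libraries, against 150.1, 146 and 146 CPM in None libraries. The LPS libraries were below the None libraries without a call (log2 fold change -0.13 ± 0.07, adjusted p = 0.1145), and library totals called it lower (-0.39, adjusted p = 0.0004856). It overlaps Smu1 on the opposite strand by 608 bases. Smu1 was not called under TMM either (-0.09, adjusted p = 0.2561), and library totals called it lower too (-0.35, adjusted p = 0.0008544). Dnaja2 (0.16, adjusted p = 0.06212) and the mitochondrial Dnaja3 (0.16, adjusted p = 0.0889) were not called. Dnaja2 passed the threshold without LPS replicate 3 (adjusted p = 0.04436) or None replicate 3 (0.03999).

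Among the 8 tested class B J proteins 5 were higher, 2 were lower and 1 was not called (4 higher and 2 lower with library totals), and in all 8 the groups did not overlap. Among all genes tested 69.1% were called and 73.6% did not overlap. Close relatives moved apart. Dnajb1, the heat-inducible Hsp40 that partners Hsp70, fell, with 27, 23.5 and 21.4 CPM in LPS libraries, against 40.4, 39.8 and 38.3 CPM in None libraries (log2 fold change -0.72 ± 0.10, adjusted p = 2.792e-05). Its relatives Dnajb4 and Dnajb5 rose. Dnajb4 had 21, 19 and 18.3 CPM in LPS libraries, against 8.57, 10.3 and 9.2 CPM in None libraries (1.05 ± 0.11, adjusted p = 3.765e-06). Dnajb5 had 7.89, 6.46 and 7.5 CPM in LPS libraries, against 3.15, 3.41 and 3.52 CPM in None libraries (1.11 ± 0.16, adjusted p = 3.762e-05).

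Dnajb2, which carries ubiquitin-interacting motifs and passes clients to the proteasome, rose most of the J proteins. It had 25.4, 22.4 and 29 CPM in LPS libraries, against 9.06, 9.2 and 8.53 CPM in None libraries (1.52 ± 0.11, adjusted p = 1.604e-07). Dnajb14, a tail-anchored J protein of the endoplasmic reticulum membrane that acts in degradation from that compartment, fell. It had 32.9, 28.8 and 28.6 CPM in LPS libraries, against 91, 79 and 73.8 CPM in None libraries (-1.43 ± 0.10, adjusted p = 5.341e-08). Its closest relative Dnajb12 was not called (0.15 ± 0.08, adjusted p = 0.09547).

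Dnajb11, a J protein inside the endoplasmic reticulum that serves Hspa5, rose (0.70 ± 0.08, adjusted p = 4.681e-06), with 153 to 177 CPM in LPS libraries and 95.3 to 102 CPM in None libraries. Dnajb6, a suppressor of protein aggregation whose promoter is shown above, had a call (0.20 ± 0.07, adjusted p = 0.02063) that was lost with library totals (-0.06, adjusted p = 0.4571) and without LPS replicate 1 (adjusted p = 0.06087), None replicate 2 (0.1095) or None replicate 3 (0.06432).

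Class C J proteins share only the J domain and act in many compartments. Of the 25 tested, 7 were higher, 9 were lower and 9 were not called, beside 34.0% higher and 35.1% lower of all genes. With library totals 5 of the 25 were higher and 12 lower. The largest decrease among those with a mean of at least 5 CPM was in Dnajc7, a cytosolic protein that binds both Hsp70 and Hsp90 through its TPR repeats. It had 37.3, 39 and 31.3 CPM in LPS libraries, against 106, 105 and 111 CPM in None libraries (log2 fold change -1.58 ± 0.09, adjusted p = 8.291e-09). Per length it stood at 28.5 ± 3.16 TPM in LPS and 100.5 ± 3.07 TPM in None (SD, n = 3 each), at rank 33 among the members in LPS and rank 15 in None. It overlaps Nkiras2 on the opposite strand by 925 bases, and Nkiras2 was lower too (-0.83, adjusted p = 2.63e-06). The part of this overlap in the result was not tested.

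Among the other class C genes that fell was Dnajc27, which carries a Ras-like GTPase domain. It had 10.4, 11.5 and 15.3 CPM in LPS libraries, against 19.9, 21.7 and 20.2 CPM in None libraries (-0.73 ± 0.13, adjusted p = 0.0002958). Dnajc30, a mitochondrial J protein, had 13.7, 10.7 and 9.16 CPM in LPS libraries, against 20.5, 17.3 and 15.4 CPM in None libraries (-0.66 ± 0.15, adjusted p = 0.001831). It overlaps Bud23 by 465 bases on the opposite strand. Bud23 was not called under TMM (-0.001, adjusted p = 0.9942) and was lower with library totals (-0.26, adjusted p = 0.0181). Dnajc28 had the lowest fitted log2 fold change of all members (-2.36 ± 0.44, adjusted p = 0.0004277), on 7 counts over the LPS libraries and 51 over the None libraries. Its antisense neighbour Gm15964, which overlaps it by 4746 bases, had 63 counts over the LPS libraries and 108 over the None libraries.

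Dnajc4 rose most in the class, with 15.9, 14.2 and 15.7 CPM in LPS libraries, against 7.38, 8.17 and 7.75 CPM in None libraries (0.97 ± 0.11, adjusted p = 7.414e-06). Dnajc22 had 16, 16.9 and 19.5 CPM in LPS libraries, against 9.66, 11.1 and 10.7 CPM in None libraries (0.74 ± 0.11, adjusted p = 8.995e-05). Dnajc15, a J protein of the mitochondrial inner membrane that restrains complex I of the respiratory chain, had 27.4, 28.8 and 27.6 CPM in LPS libraries, against 16.1, 16.6 and 18.2 CPM in None libraries (0.72 ± 0.09, adjusted p = 1.525e-05). In all of these the LPS libraries lay above the None libraries.

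The remaining class C calls were Dnajc1 (0.71), Dnajc10 (0.60), Dnajc21 (0.52) and Dnajc18 (0.34) higher, and Dnajc19 (-0.56), Dnajc11 (-0.41), Dnajc25 (-0.41), Dnajc9 (-0.40) and Dnajc5 (-0.30) lower. Library totals lost the calls of Dnajc21 (0.26, adjusted p = 0.09537) and Dnajc18 (0.08, adjusted p = 0.4701). The call of Dnajc25 was lost without each library but LPS replicate 3 (adjusted p from 0.05527 to 0.1405), and that of Dnajc9 without None replicate 3 (adjusted p = 0.05623). Dnajc19 overlaps Fxr1 on the opposite strand by 14303 bases, and Dnajc1 overlaps Mllt10 by 6055 bases. These are overlaps of whole gene spans, introns included, and whether exons overlap was not examined. Dnajc3, which holds the endoplasmic reticulum stress element, was not called (-0.23 ± 0.10, adjusted p = 0.05213), was lower with library totals (-0.49, adjusted p = 0.0008351) and passed the threshold without LPS replicate 1 (-0.31, adjusted p = 0.01105). Dnajc12, Dnajc14, Dnajc8, Dnajc13, Dnajc24, Dnajc2, Dnajc17 and Dnajc16 were not called either, at -0.16 to 0.22. Of these, Dnajc13 passed the threshold without LPS replicate 3 (0.24, adjusted p = 0.008596) and Dnajc14 without None replicate 1 (0.24, adjusted p = 0.02827). Library totals called Dnajc16 (-0.42, adjusted p = 0.0009439) and Dnajc2 (-0.29, adjusted p = 0.01218) lower.

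**Figure D4:**
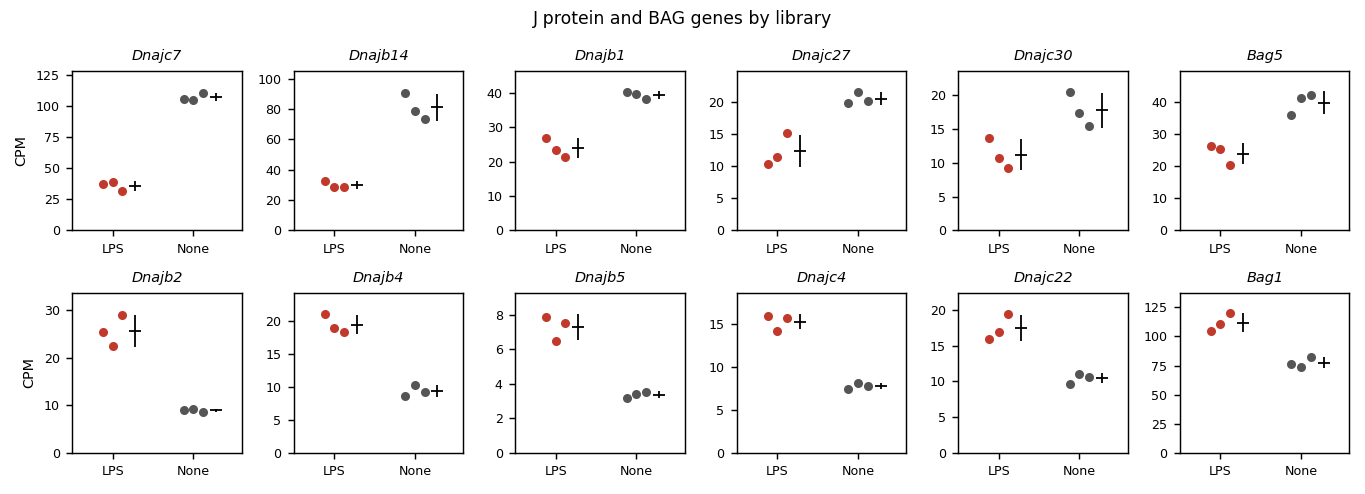
CPM (TMM-scaled, axes from 0) of 10 J protein genes and 2 BAG genes in each library, LPS left of None; points are libraries and the cross gives the mean ± SD (n = 3 each). The upper row holds genes that were lower in LPS, with Dnajc7 at 31.3 to 39 CPM in LPS, against 105 to 111 CPM in None, and the lower row genes that were higher.

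By compartment, 8 members taken from textbook knowledge as acting in or at the endoplasmic reticulum, a list that is not complete, were Dnajb11, Dnajb12, Dnajb14, Dnajc1, Dnajc3, Dnajc10, Dnajc25 and Hspa13. Of these 4 were higher and 2 lower, and with library totals 3 were higher and 3 lower. Of all genes tested 34.0% were higher and 35.1% lower, and with library totals 2679 of 11916 were higher and 6076 lower. The 9 members taken as mitochondrial were Hspa9, Hspd1, Hspe1, Dnaja3, Dnajc11, Dnajc15, Dnajc19, Dnajc28 and Dnajc30. Of these 2 were higher and 4 lower under either scaling. Summed over these 9 members, TPM was 879.9 ± 35.2 in LPS and 877 ± 50.2 in None (SD, n = 3 each).

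A few genes carried much of the chaperone RNA. Per length, Hspa8 and Hsp90ab1 made up 32.38% of the summed TPM of the members in LPS and 41.6% in None. Summed TPM of all members was 7257 to 7484 in LPS libraries, against 7605 to 8022 in None libraries, a difference smaller than the shift of the median of all genes on this scale. Hsp90aa1 stood at rank 3 in LPS and rank 6 in None, Cct3 at rank 4 in LPS and 5 in None, and Cct7 at rank 7 in LPS and 12 in None. Summed TPM over the Hsp70 and Hsp110 class was 1698 ± 121 in LPS and 2239 ± 25.7 in None, and over the CCT members 2172 ± 12.7 in LPS and 1945 ± 95.1 in None (SD, n = 3 each).

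Of the 20 members not tested, 11 had 0 counts in all 6 libraries. These were Dnaja4, Dnajb3, Dnajb7, Dnajb8, Dnajc5b, Dnajc5g, Cct8l1, Hspb1, Hspb2, Hspb3 and Hspb9. The others had up to 11 counts over the LPS libraries and up to 14 over the None libraries and were Cct6b, Hspa1a, Hspa1l, Hspa12a, Hspa12b, Dnajb13, Dnajc6, Hspb8 and Hspg2. Hspb8, a partner of Bag3, had 11 counts over the LPS libraries and 2 over the None libraries. Hspbp1, an exchange factor of Hsp70 (0.14, adjusted p = 0.1538), and Hspbap1 (-0.31, adjusted p = 0.1827) were tested and not called, and library totals called Hspbap1 lower (-0.57, adjusted p = 0.02615).

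The promoter elements were set beside these calls. A window was matched by symbol for 53 of the 67 tested members, and 69.1% of all genes tested were called. Among the 10 tested members with a heat shock element, 3 were higher (Hsph1, Dnajb6 and Cct2), 3 were lower (Hspa1b, Dnajc27 and Hspb6) and 4 were not called (Hspd1, Hspe1, Dnaja1 and Bag3). Their log2 fold changes under TMM ran from -1.76 to 0.48, with a median of 0.01. With library totals Dnajb6 (-0.06, adjusted p = 0.4571) and Cct2 (-0.003, adjusted p = 0.9696) lost their call. Dnaja1 (-0.39, adjusted p = 0.0004856) and Bag3 (-0.34, adjusted p = 0.003559) were then called lower. Hsph1 stayed higher, and Hspa1b, Dnajc27 and Hspb6 stayed lower. Hspd1 and Hspe1, which share the same matched site, stayed without a call. Of all 11916 genes tested, that scaling called 2679 higher and 6076 lower. No member with a match was among the 4 called at least 2-fold higher, which were Hspa4l, Dnajb2, Dnajb5 and Dnajb4. With 10 matches among 53 members, an absence among 4 genes says little.

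Genes around the chaperone cycle were taken from lists by function. Of all genes tested 34.0% were higher and 35.1% lower, and with library totals 2679 of 11916 were higher and 6076 lower. Of 5 genes for heat shock factors and their binding protein 3 were tested, and 2 were higher and none lower, while with library totals 1 was higher and 1 lower. Hsf1, the main heat shock factor, had 39, 34.7 and 38 CPM in LPS libraries, against 42.7, 39.1 and 39.2 CPM in None libraries and was not called (-0.11, adjusted p = 0.2385), while library totals called it lower (-0.37, adjusted p = 0.001117). Hsf2 had 30.1, 27.8 and 27.7 CPM in LPS libraries, against 16.6, 17.5 and 17.8 CPM in None libraries (0.72, adjusted p = 1.217e-05). Of 8 tested further targets of heat shock factors 3 were higher and 3 lower (3 and 5 with library totals). Bcl2l1, which protects from apoptosis, rose (3.15, adjusted p = 2.046e-11), and so did the haem-degrading Hmox1 (2.88, adjusted p = 5.761e-11). Rgs2, a regulator of G proteins, fell (-4.11, adjusted p = 2.291e-10).

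Of 20 Hsp90 and Hsp70 cochaperone genes 12 were higher and 2 lower, beside 34.0% higher and 35.1% lower of all genes. With library totals 5 of the 20 were higher and 7 lower, beside 2679 higher and 6076 lower of all 11916 genes tested. Fkbp8, a membrane-anchored immunophilin, rose (0.91, adjusted p = 6.767e-07). Stip1, which bridges Hsp70 and Hsp90, was higher by 0.46 (adjusted p = 0.0003452). Tomm34, which meets precursors at the mitochondrial surface, fell (-0.40, adjusted p = 0.001586). Of 11 prefoldin genes and other CCT partners 6 were higher and 2 lower, and with library totals 2 were higher and 4 lower. The prefoldin subunits Pfdn1 (1.02, adjusted p = 8.736e-06) and Pfdn4 (0.81, adjusted p = 1.006e-05) rose most, and Pdcl, a phosducin-like partner of CCT, fell (-0.57, adjusted p = 2.163e-05).

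The counts of the next lists stand beside 34.0% higher and 35.1% lower of all genes. With library totals 2679 of all 11916 genes tested were higher and 6076 lower. Of 8 mitochondrial folding partners 5 were higher and 1 lower (4 and 2 with library totals). Lonp1, a protease of the matrix, rose (0.79, adjusted p = 8.117e-06), as did Grpel1, the exchange factor of Hspa9 (0.62, adjusted p = 5.84e-06), and Hscb, its J protein for iron-sulphur clusters, fell (-0.67, adjusted p = 7.146e-05). Of 14 folding genes of the endoplasmic reticulum 11 were higher and 2 lower, and with library totals 10 were higher and 3 lower. Creld2 (1.54, adjusted p = 3.037e-08), the disulfide isomerase Pdia4 (1.21, adjusted p = 3.221e-08) and Hspa5, the Hsp70 of that compartment (0.95, adjusted p = 3.052e-06), rose. Xbp1, a transcription factor of the unfolded protein response (-0.58, adjusted p = 3.23e-05), and Dnajb9, a J protein of Hspa5 (-0.30, adjusted p = 0.02162), fell. The call of Dnajb9 was lost with DESeq2 (adjusted p = 0.07186), without LPS replicate 2 (0.07732) and without None replicate 3 (0.1142).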

How the data were processed

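RNA of RAW-Blue cells was sequenced as paired 100-base reads, per the labels' protocols. STAR 2.7.10a, RSEM 1.3.1 and the build GRCm38 are listed, per the submitters' processing notes. The deposited tables hold the authors' expected counts and TPM per gene, per the file headers. Starts in the tables count from 0, and 1 was added. Overlaps between genes were counted over whole gene spans, introns included. Strandedness is not stated by the labels. The tables' 12 library columns matching no label were not used.

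Expected counts were rounded, filtered with filterByExpr (count minimum 10), scaled by TMM and fitted in edgeR 4.0.16 (R 4.3.3, quasi-likelihood test, two-sided) with group as the single term and Benjamini-Hochberg adjustment over 11916 genes at 0.05. SE is the log2 fold change divided by the square root of F. The steps were run on simulated counts in which few genes changed. In the data 69.1% of genes were called, so the simulation did not test the scaling under such wide change. The biological coefficient of variation was 8.32%. Libraries of a group differed by more than sampling noise (chi-square per degree of freedom 3.3 to 17.1). Of counts, at most 0.0318% fell on 530 genes without a symbol.

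Values by library are given for members that a rule names: in each class up to 3 members with the largest change each way among those with adjusted p under 0.05, at least 5 CPM and no overlap, and a fixed panel of well-known genes. Dnajb11, Hspa13, Hspa2 and other members below those limits were described after their values were seen. The members and lists were chosen with earlier results of these data known. A planned comparison of protein sequences was not made, since no protein table was used here. Alternatives were RLE and library-total scaling, DESeq2 1.42.0, other filters, a replicate block, limma 3.58.1 on log2(TPM + 1) or (TPM + 0.1), and leaving out each library.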

Additional observations from a re-analysis of the deposited data

How the results depend on the processing

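The counts of all genes called, of members higher and of members lower stayed within 1.5 times the reported value in every alternative run. The median log2 fold change of the tested members (0.14 as reported) changed sign with library totals (-0.115) and with limma on log2(TPM + 1) (-0.039), log2(TPM + 0.1) (-0.040) and log2(TPM + 1) without a filter (-0.042), and lay between 0.10 and 0.17 when 1 library was left out. The median of all genes also moved down under those scalings. Library totals turned 18 tested members from above to below 0 and none the other way, among them Cct2 (-0.003), Cct4 (-0.17) and Cct8 (-0.03). Of the 35 tested members that the naming rule names, 26 kept their call in every alternative, as did 41 of all 67 tested members. With the replicate block 28 members were higher and 18 lower, no call of those 35 members changed, and the median was 0.15. Of the other members the block lost the call of Hspb6 (adjusted p = 0.05647) and gained those of Hspb7 (0.009368), Bag4 (0.04245), Dnajc14 (0.04844) and Dnajc3 (0.02498). Same-numbered libraries were not found to be paired, since their deviations correlated at 0.08, -0.02 and 0.01. The 3 libraries per group limit which small changes can be called, and low counts limit Dnajc28, Hspa2 and Hspa1b.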
